A study of Mus musculus with 14 samples.

Results

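The regions described here are H3K4me3 peaks at promoters of long noncoding RNA (lncRNA) genes that stand apart from protein-coding promoters. A peak was taken when its centre lay within 1 kb of the transcription start site (TSS) of a GENCODE gene typed as lincRNA, antisense, processed_transcript, bidirectional_promoter_lncRNA or lncRNA, and when no TSS of a protein-coding gene lay within 5 kb of any of its bases. The rule found 468 peaks of 25431 in the whole list. A further 1912 peaks were centred within 1 kb of a lncRNA TSS but had a coding TSS within 5 kb. H3K4me3 was measured by ChIP-seq in immortalised mouse embryo fibroblasts (iMEF) whose only ASH2L is a fusion of the human protein to FKBP12F36V, delivered by lentivirus. Cre-ER had removed exon 4 of the floxed endogenous Ash2l, so every group carries this deletion and this fusion, and the cells are 1 clone (NG3). The compound dTAG leads to degradation of the fusion. There were 6 groups of 2 H3K4me3 libraries each, 1 without dTAG and the others after 30 min, 2 h, 4 h, 8 h and 16 h of it, and 2 input libraries (untreated and 16 h). The files used here give the positions of peaks found across all samples together, with no value per library, no peak height and no read depth. No comparison between times of treatment and no replicate error can therefore be given, and every share below carries a 95% Wilson interval that covers counting error over regions only. Regions are not replicates, many of them share a gene, and no test of a difference between classes of regions was made.

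H3K4me3 is placed on nucleosomes around active or poised start sites by the SET1 and MLL methyltransferases, whose shared core contains ASH2L. lncRNA genes are transcribed by RNA polymerase II and mostly spliced, as coding genes are, and several act in the nucleus on chromatin or on splicing bodies, while others serve as hosts from which microRNAs and small nucleolar RNAs (snoRNAs) are cut. Promoters in CpG islands, stretches rich in the CG dinucleotide, usually carry broad H3K4me3, and promoters outside islands are more often used in particular cell types. The labelled cell type was checked against its defining markers. All 10 fibroblast markers (Col1a1, Pdgfra, Thy1, Prrx1 and others) had a peak within 1 kb of a TSS, against 2 of 4 epithelial, 1 of 3 blood, 2 of 3 neural and 0 of 3 pluripotency markers, beside 59.1% of all coding genes. Lists of 3 or 4 genes say little against that share.

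To show what these promoters look like, the window from 250 bases before to 50 bases after the TSS is given for the gene with the widest peak in each gene list that has one, and for the widest peak of all. All are on GRCm38.p6, 5′ to 3′ along transcription, and capitals mark the letters of 7 motifs searched on both strands (the TATA box TATAAA, the CCAAT box, the GC box GGGCGG, the cAMP response element TGACGTCA, the E-box CACGTG, the ETS site CCGGAAG and the AP-1 site TGACTCA, none of which contains another). Jpx, an X-linked RNA gene next to Xist, lies on the plus strand, chrX:103493306-103493605, and its window holds 27 CG dinucleotides.
Jpx: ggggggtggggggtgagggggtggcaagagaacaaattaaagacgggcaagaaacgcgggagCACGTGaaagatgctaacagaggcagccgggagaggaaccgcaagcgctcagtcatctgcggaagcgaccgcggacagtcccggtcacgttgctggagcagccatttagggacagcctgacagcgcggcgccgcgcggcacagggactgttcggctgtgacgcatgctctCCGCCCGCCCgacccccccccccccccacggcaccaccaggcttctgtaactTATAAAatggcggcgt
Lncpint, a p53-responsive RNA, lies on the minus strand, chr6:31218173-31218472, with 17 CG dinucleotides.
Lncpint: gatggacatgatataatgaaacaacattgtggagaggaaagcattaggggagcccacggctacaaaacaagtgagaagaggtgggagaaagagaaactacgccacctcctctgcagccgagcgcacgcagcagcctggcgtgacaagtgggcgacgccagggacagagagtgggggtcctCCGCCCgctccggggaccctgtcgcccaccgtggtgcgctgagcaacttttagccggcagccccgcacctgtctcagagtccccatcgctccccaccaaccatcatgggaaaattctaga
2810410L24Rik, the gene with the widest peak of all, lies on the minus strand, chr11:120188702-120189001, with 13 CG dinucleotides.
2810410L24Rik: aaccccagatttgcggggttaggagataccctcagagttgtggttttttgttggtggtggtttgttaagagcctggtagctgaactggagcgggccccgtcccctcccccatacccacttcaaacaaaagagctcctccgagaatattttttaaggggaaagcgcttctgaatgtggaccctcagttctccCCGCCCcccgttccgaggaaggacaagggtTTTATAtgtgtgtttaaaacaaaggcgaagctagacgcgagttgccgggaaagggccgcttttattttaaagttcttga
3110039I08Rik, the host of miR-100, let-7a-2 and miR-125b-1, also has the widest peak without an island. It lies on the plus strand, chr9:41580531-41580830, with 8 CG dinucleotides, and none of the 7 motifs is in this window.
3110039I08Rik: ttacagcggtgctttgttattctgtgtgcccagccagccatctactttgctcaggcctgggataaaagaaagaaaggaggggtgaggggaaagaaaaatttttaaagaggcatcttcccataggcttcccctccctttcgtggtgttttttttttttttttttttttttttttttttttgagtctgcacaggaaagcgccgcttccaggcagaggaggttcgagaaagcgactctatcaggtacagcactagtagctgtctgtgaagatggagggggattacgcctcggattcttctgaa
Rmst, an RNA gene known from neural development, lies on the minus strand, chr10:92162712-92163011, with 17 CG dinucleotides although its peak overlaps no island.
Rmst: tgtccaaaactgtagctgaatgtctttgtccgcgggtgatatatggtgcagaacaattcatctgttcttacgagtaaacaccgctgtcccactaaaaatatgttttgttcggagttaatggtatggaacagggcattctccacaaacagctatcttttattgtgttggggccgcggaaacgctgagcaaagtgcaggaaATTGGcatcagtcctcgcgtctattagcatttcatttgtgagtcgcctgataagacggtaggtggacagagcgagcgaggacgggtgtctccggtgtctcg
Platr16, from a set of transcripts named for pluripotent cells, lies on the plus strand, chr4:145410016-145410315, with 5 CG dinucleotides.
Platr16: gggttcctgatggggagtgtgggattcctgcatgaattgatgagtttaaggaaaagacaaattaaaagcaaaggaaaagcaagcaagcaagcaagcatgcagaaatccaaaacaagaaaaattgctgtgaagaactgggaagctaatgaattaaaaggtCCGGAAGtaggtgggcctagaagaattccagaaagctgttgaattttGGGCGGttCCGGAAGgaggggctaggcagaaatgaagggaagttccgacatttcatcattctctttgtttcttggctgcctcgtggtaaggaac

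The 468 peaks belonged to 357 lncRNA genes, each peak being assigned to the gene of the nearest lncRNA TSS. Of these genes 237 were lincRNA, 70 processed_transcript and 50 antisense genes, with 296, 105 and 67 peaks, and none was a bidirectional_promoter_lncRNA gene. Most carried provisional names (184 Gm numbers, 105 Rik clones and 18 clone-derived names), and 50 had another name. A single peak was found at most genes, and 82 genes had more than 1. Among the latter, 63 had 2 peaks, 11 had 3, 6 had 4 and 2 had 5. Of the 111 pairs of neighbouring peaks of 1 gene, 96 lay within 1 kb of each other, with a median gap of 192 bp (quartiles 123 and 376 bp). For 38 peaks the centre was within 1 kb of TSSs of more than 1 lncRNA gene. The gene had a spliced transcript for 439 of 468 peaks (93.8%, interval 91.2 to 95.7%).

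The stand-alone lncRNA promoter peaks were narrower than peaks at coding promoters and wider than peaks away from any TSS. Their median width was 560 bp (quartiles 320.8 and 888 bp, range 200 to 3384 bp). Coding promoter peaks (centre within 1 kb of a coding TSS, n = 16578) had a median of 981 bp (quartiles 544.2 and 1441 bp), and the lncRNA promoter peaks with a coding TSS within 5 kb, many of which are coding promoter peaks as well, had a median of 1020 bp. TSS-distal peaks (centre more than 1 kb from every GENCODE TSS, n = 7771) had a median of 284 bp. A width of at least 500 bp was reached by 250 of 468 stand-alone peaks (53.4%, interval 48.9 to 57.9%), 77.3% of coding promoter peaks and 23.3% of TSS-distal peaks. The lowest width, 200 bp, was that of 18 stand-alone peaks (3.85%) and of 14.6% of TSS-distal peaks.

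**Figure D1:**
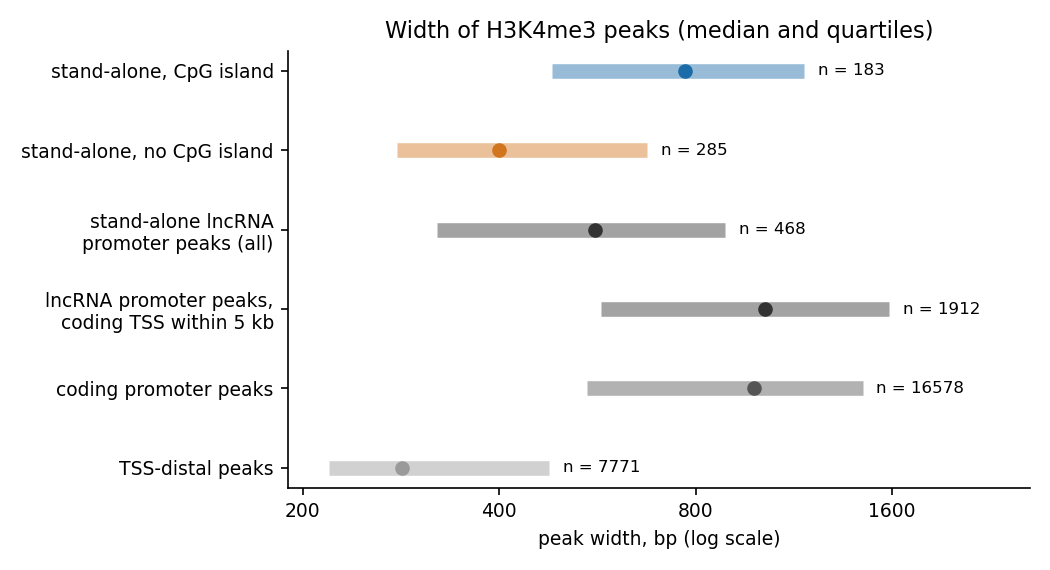
Width of H3K4me3 peaks in bp on a log axis, by class of region. Points are medians and bars run from the lower to the upper quartile. The median is 769 bp for stand-alone lncRNA promoter peaks with a CpG island and 399 bp for those without. It is 981 bp for coding promoter peaks and 284 bp for TSS-distal peaks, which are not split by island.

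CpG islands divided these promoters. Of the 468 peaks, 183 overlapped an island (39.1%, interval 34.8 to 43.6%). The share was 74.2% for coding promoter peaks, 77.1% for lncRNA promoter peaks with a coding TSS within 5 kb, and 12.4% for TSS-distal peaks. The intervals of these classes did not overlap that of the stand-alone peaks. The classes differ in width, however, and a wider peak has more bases that can overlap an island. The classes were not compared at like width. With a stricter island rule (at least 500 bp, GC of at least 55%) the share fell to 19.2% (interval 15.9 to 23.0%), beside 52.1%, 59.4% and 6.27% of the same classes. Peaks with an island had a median width of 769 bp (quartiles 482.5 and 1173 bp, n = 183) and those without had a median of 399 bp (quartiles 279 and 674 bp, n = 285). Among peaks under 300 bp, 12 of 99 overlapped an island (12.1%), and among peaks of 1000 bp and more, 70 of 97 did (72.2%). Part of this can come from the bases that a wider peak offers for overlap, which was not tested. The peaks without an island were still richer in CG dinucleotides than distal ones. Their median observed over expected CpG ratio was 0.395, against 0.273 in TSS-distal peaks, 0.719 in stand-alone peaks with an island and 0.647 in coding promoter peaks. By type, 127 of 296 lincRNA peaks (42.9%), 37 of 105 processed_transcript peaks (35.2%) and 19 of 67 antisense peaks (28.4%) overlapped an island, with intervals that overlap each other.

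In the promoter windows of the 410 distinct TSSs to which the peaks were assigned, the GC box GGGCGG, a site of Sp1 family factors, was in 169 (41.2%, interval 36.6 to 46.0%). It was in 67.2% of windows at coding promoter peaks, 35.9% of all lncRNA and coding windows, and 7.43% of the 9333 windows at stand-alone lncRNA TSSs without a peak. A TSS can be assigned peaks of both kinds, and the GC box was in 66.3% of the 169 windows assigned a peak with an island and in 26.3% of the 255 assigned one without. The AP-1 site TGACTCA, bound by Fos and Jun dimers, ran the other way. It was in 26 of 255 windows of peaks without an island (10.2%, interval 7.05 to 14.5%) and in 5 of 169 with one (2.96%, interval 1.27 to 6.74%), beside 2.89% at coding promoter peaks, 6.35% at stand-alone TSSs without a peak and 4.56% of all windows. Over the 410 windows together it was in 31 (7.56%, interval 5.38 to 10.5%), an interval that includes the 6.35% at stand-alone TSSs without a peak. The ETS site CCGGAAG was in 9.51% of the 410 windows, 16.1% at coding promoter peaks, 2.65% at stand-alone TSSs without a peak and 9.69% of all windows. The E-box CACGTG was in 10.2% of the 410, beside 9.29%, 4.77% and 6.90% of the same 3 sets. CCAAT was in 36.8%, beside 34.7%, 41.5% and 35.3%, and the cAMP response element TGACGTCA in 2.68%, beside 3.03%, 0.739% and 1.85%. TATAAA on either strand was in 10.5%, beside 5.07%, 15.4% and 11.7%, and between 40 and 16 bases before the TSS on the transcribed strand it was in 4 of 410 windows (0.976%), beside 1.17% of all windows. These are matches of letters, not sites shown to be bound. The windows also differ in base content. The median GC was 62.3%, with 23 CG dinucleotides, where the peak had an island, and 51.3% with 8 where it had none. It was 63.7% with 23 at coding promoter peaks and 47% with 3 at stand-alone TSSs without a peak. GGGCGG holds only G and C and contains a CG, so its share depends on that content. How far the shares of the other motifs follow base content was not tested.

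The centre of the peak lay downstream of the lncRNA TSS more often than upstream. It was downstream for 285 of 468 peaks (60.9%, interval 56.4 to 65.2%), beside 66.9% of coding promoter peaks. The median offset of the centre was 89 bp downstream (quartiles -169.1 and 309.6 bp, negative being upstream) and 136 bp downstream at coding promoter peaks. The TSS lay inside the peak for 268 of 468 (57.3%, interval 52.7 to 61.7%). Where it lay outside, the peak was downstream in 50.5% of 200 cases (interval 43.6 to 57.4%). At coding promoter peaks with the TSS outside, this was so in 34.4% of 4249 cases (interval 33.0 to 35.8%). The TSS was inside for 132 of 183 peaks with an island (72.1%), 136 of 285 without (47.7%) and 74.4% of coding promoter peaks. Where the TSS lay inside, the peak reached a median of 448 bp downstream and 266 bp upstream, beside 789 and 375 bp at coding promoters. A wider peak has more bases that can cover the TSS, and these classes differ in width. The nearest TSS was also taken from 93462 coding TSSs at coding promoter peaks and from 14560 lncRNA TSSs at stand-alone peaks. The positions were not compared at like width or like number of TSSs. At 22 of the 410 TSSs (5.37%, interval 3.57 to 7.99%) a peak lay on each side within 1 kb and none over the TSS, with a median gap of 269.5 bp, and this was so at 7.43% of TSSs of coding promoter peaks, with a median gap of 174 bp.

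**Figure D2:**
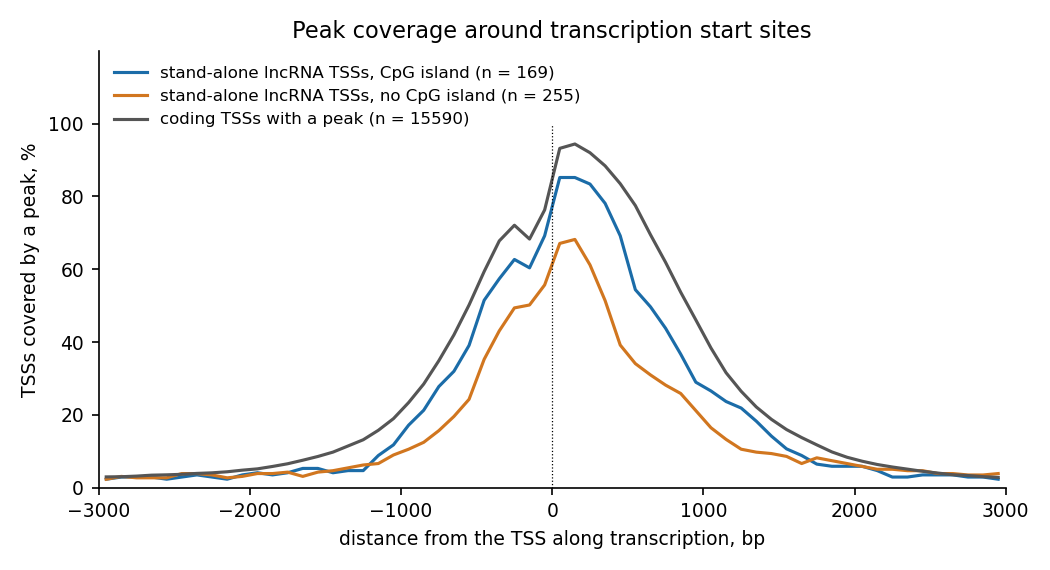
Share of TSSs, in percent, that a listed peak covers at each distance from the TSS in bp along transcription, in steps of 100 bp, for the TSSs assigned to stand-alone lncRNA promoter peaks with and without a CpG island and for TSSs of coding promoter peaks. All 3 lines are highest just downstream of the TSS. The island and coding lines dip at 150 bp upstream, to 60.4% and 68.3%, and the line without an island reaches at most 68.2%.

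Most stand-alone lncRNA genes had no peak. Of 7027 lncRNA genes with a TSS more than 5 kb from every coding TSS, 402 had a peak within 1 kb of such a TSS (5.72%, interval 5.20 to 6.29%). Of the coding genes, 12966 of 21938 had a peak within 1 kb of a TSS (59.1%). The 402 genes include those whose peak was centred farther off or was assigned to another gene. A peak was found at 182 of 301 stand-alone genes with an island within 1 kb of the TSS (60.5%, interval 54.8 to 65.8%) and at 220 of 6726 without one (3.27%, interval 2.87 to 3.72%). For coding genes the shares were 90.1% and 16.6%, but a coding gene has more TSSs at which a peak can fall. Among genes with 1 TSS and an island, 88 of 159 stand-alone lncRNA genes (55.3%, interval 47.6 to 62.9%) and 1197 of 1543 coding genes (77.6%, interval 75.4 to 79.6%) had a peak. Among genes with 1 TSS and no island the shares were 2.40% (interval 2.02 to 2.86%) and 6.47% (interval 5.68 to 7.35%). By type, a peak was found at 77 of 429 processed_transcript genes (17.9%, interval 14.6 to 21.9%), 264 of 5174 lincRNA genes (5.10%), 61 of 1416 antisense genes (4.31%) and 0 of 8 bidirectional_promoter_lncRNA genes (upper bound 32.4%). Genes with 5 or more annotated transcripts had a peak in 54 of 227 cases (23.8%, interval 18.7 to 29.7%) and genes with 1 transcript in 203 of 5020 (4.04%). More transcripts also give more TSSs at which a peak can fall. Among genes without an island the 2 shares were 14.3% and 2.40%. No peak was found at the 551 stand-alone lncRNA genes of the Y chromosome (upper bound 0.692%), on which the list has 3 peaks in all.

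**Figure D3:**
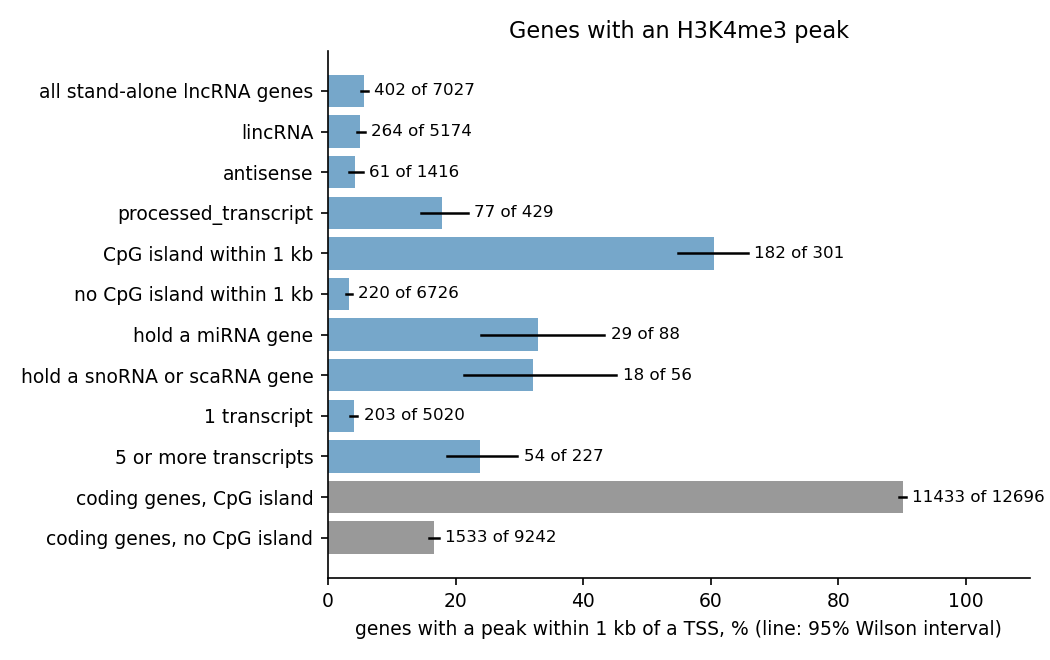
Percent of genes with a listed H3K4me3 peak within 1 kb of a TSS, for stand-alone lncRNA genes split by annotation and, below, for coding genes. Bars are shares, lines are 95% Wilson intervals over genes and the numbers give genes with a peak of all genes. Stand-alone genes with a CpG island reach 60.5% and those without 3.27%.

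Many of these promoters also lay in regions listed as putative enhancers. The study defined enhancers by H3K4me1, H3K27ac and ATAC signal in control cells and left out 1 kb on each side of TSSs of known promoters, so the overlap depends on which TSSs were taken as known. Of the 468 peaks, 145 overlapped a putative enhancer (31.0%, upper bound of the interval 35.3%). Coding promoter peaks (3.76%) and lncRNA promoter peaks with a coding TSS within 5 kb (4.92%) lie largely in the stretches that the enhancer list leaves out, so their low shares follow from how that list was made and are no comparison for the stand-alone peaks. For TSS-distal peaks the share was 22.4%, but these peaks are narrower, and a wider peak has more bases that can overlap. TSS-distal peaks are also centred more than 1 kb from every GENCODE TSS, and stand-alone peaks within 1 kb of one. The stretches left out of the enhancer list can thus lower the stand-alone share more, by an amount that was not tested. With this limit, the classes had no constant order at like width. Under 300 bp the share was 22.2% for stand-alone peaks (interval 15.2 to 31.4%) and 13.1% for TSS-distal peaks, from 300 to under 500 bp 28.6% and 26.6%, from 500 to under 1000 bp 32.7% and 39.6%, and from 1000 bp 40.2% and 39.7%, and only under 300 bp did the intervals not overlap. By island the shares were 61 of 183 peaks with one (33.3%) and 84 of 285 without (29.5%), with intervals that overlap. By annotation they lay further apart. Where RefSeq also places a noncoding TSS within 1 kb of the centre, which it does for 253 of 468 peaks (54.1%), 54 overlapped an enhancer (21.3%, interval 16.7 to 26.8%), and of the other 215 peaks 91 did (42.3%, interval 35.9 to 49.0%). Peaks with no RefSeq TSS of any kind within 1 kb overlapped an enhancer in 84 of 182 cases (46.2%). Of the putative enhancers themselves, 5.31% had a base within 1 kb of a GENCODE coding TSS and 3.18% within 1 kb of a RefSeq coding TSS, while 2.33% had one within 1 kb of a GENCODE lncRNA TSS and 3.03% within 1 kb of a RefSeq noncoding TSS, so these shares do not show which TSSs the list left out. The median width was 557 bp with RefSeq support and 563 bp without. Putative enhancers within 50 kb numbered a median of 2 around stand-alone peaks (quartiles 1 and 4, highest 12) and 1 around coding promoter peaks.

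**Figure D4:**
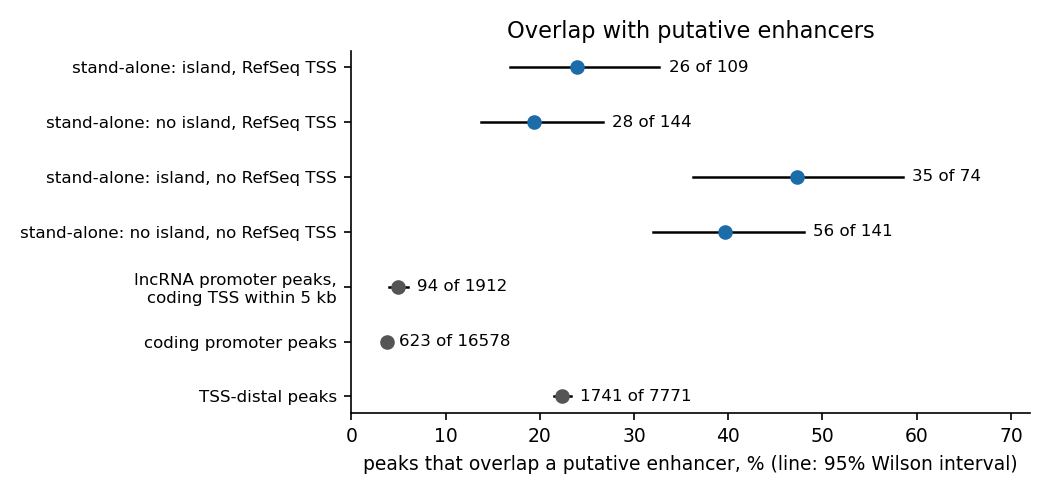
Percent of peaks that overlap a putative enhancer, for the stand-alone lncRNA promoter peaks split by CpG island and by a RefSeq noncoding TSS within 1 kb, and for the other classes. Points are shares, lines 95% Wilson intervals, and the numbers give peaks with an overlap of all peaks. The stand-alone peaks without a RefSeq TSS reach 47.3% and 39.7%, those with one 23.9% and 19.4%.

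Among lncRNAs that are nuclear or widely expressed, all 11 listed genes had a peak within 1 kb of a TSS and 8 of them had stand-alone peaks. Of all 9793 lncRNA genes, stand-alone or not, 20.3% had such a peak. Malat1, an abundant RNA of nuclear speckles, had 4, of 840, 753, 371 and 549 bp. The first pair lies at start sites inside the gene, the second at its 5′ end, and only the 549 bp peak overlapped an island. Its neighbour Neat1, the scaffold of paraspeckles, had 3 peaks within 1 kb of a TSS, the widest of 3456 bp, and the stand-alone peak among them was nearest to a TSS of the antisense gene Frmd8os. Lncpint had 4 stand-alone peaks at separate groups of start sites. At the upstream group, chr6:31216029-31219233, a peak of 3205 bp with an island was followed upstream by one of 1659 bp without, and at the downstream group, where the wider is chr6:31087370-31088566, a peak of 1197 bp and one of 229 bp both overlapped enhancers and no island. Pvt1, downstream of Myc on chromosome 15, had adjoining peaks of 1358 and 1188 bp, the first with an island. Dancr had peaks of 252 and 651 bp. Trp53cor1 (lincRNA-p21), whose nearest coding gene is the p53 target Cdkn1a at 12419 bp, had 1 peak of 833 bp without an island. Chaserr, annotated as 1810026B05Rik and upstream of Chd2 on its strand, had peaks of 1028 and 379 bp. Norad, annotated as 2900097C17Rik, had peaks of 201 and 606 bp, and more than 50% of their 75-base words, the read length of the study, occur elsewhere in the genome. Oip5os1, annotated as 1700020I14Rik, had 1 peak of 857 bp. The other listed genes, Tug1 and Crnde, share their promoters with coding genes, with a coding TSS 86 and 1505 bp away.

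On the X chromosome, 4 of 5 listed genes of the inactivation centre and of nuclear organisation had a peak within 1 kb of a TSS, beside 20.3% of all lncRNA genes. Jpx had 1 of 1009 bp, centred 8 bp upstream of its TSS and overlapping an island. Ftx had 5, of 487, 300, 337, 699 and 961 bp, at several start sites, 3 of them with an island. Firre had 3, of 319, 504 and 230 bp, around 1 promoter with no island. Xist had a peak of 2082 bp within 1 kb of its TSS, but the centre lay 1280.5 bp away and the rule left it out, and Tsix had none.

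A peak was found at about 1 in 3 hosts of small RNAs. Of stand-alone genes with a miRNA gene on the same strand, 29 of 88 had a peak (33.0%, interval 24.0 to 43.3%), as did 18 of 56 with a snoRNA or scaRNA gene (32.1%, interval 21.4 to 45.2%) and 357 of 6887 with neither (5.18%). With an island near the TSS the shares were 15 of 22 (68.2%, interval 47.3 to 83.6%), 15 of 15 (lower bound 79.6%) and 153 of 265 (57.7%, interval 51.7 to 63.5%). Without one, 14 of 66 miRNA hosts (21.2%, interval 13.1 to 32.5%), 3 of 41 snoRNA or scaRNA hosts (7.32%, interval 2.52 to 19.4%) and 204 of 6622 other genes (3.08%, interval 2.69 to 3.52%) had a peak. Within island status the intervals of miRNA hosts with an island and of snoRNA or scaRNA hosts without one thus overlap those of genes with neither. These shares were not split by number of transcripts. More TSSs give more places at which a peak can fall, and stand-alone genes with 5 or more transcripts had a peak in 23.8% of cases. The peaks described here belonged to 24 hosts of miRNA genes and 17 hosts of snoRNA or scaRNA genes, in 69 of 468 peaks (14.7%). Of the 39 miRNA genes in these hosts, 30 had a mature 5p sequence in the RefSeq table. Of these, 6 from 3 hosts share the let-7 seed GAGGUAG. Mirlet7a-2 in 3110039I08Rik was not among the 30, so that host is not counted here or set beside let-7a below. The miR-99 and miR-100 pair and both miR-125b genes lie with let-7 genes in a pair of similar clusters. The mature sequences of all these are therefore given, with the seed (bases 2 to 8) in capitals.
mmu-let-7a-5p (6720427I07Rik): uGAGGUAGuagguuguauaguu
mmu-let-7b-5p (Lncppara): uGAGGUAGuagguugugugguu
mmu-let-7c-5p (Mir99ahg and Lncppara): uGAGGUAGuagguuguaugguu
mmu-let-7d-5p (6720427I07Rik): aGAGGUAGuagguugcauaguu
mmu-let-7f-5p (6720427I07Rik): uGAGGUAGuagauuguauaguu
mmu-miR-100-5p (3110039I08Rik): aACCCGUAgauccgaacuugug
mmu-miR-99a-5p (Mir99ahg): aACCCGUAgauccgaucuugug
mmu-miR-125b-5p (3110039I08Rik and Mir99ahg): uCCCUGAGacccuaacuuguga
The hosts of both clusters were marked at several start sites and without an island. 3110039I08Rik, also known as Mir100hg, had 4 peaks of 304, 639, 936 and 3182 bp, and the widest of them held the Mir125b-1 gene (chr9:41581926-41582002), 1145 bp downstream of the TSS. Mir99ahg had 5 peaks of 733, 394, 376, 477 and 200 bp in 2 groups. Lncppara had 1 of 1333 bp and 6720427I07Rik 1 of 482 bp, the latter with an island. Dnm3os, a mesenchymal transcript from within Dnm3 on the opposite strand and host of miR-199a-2 and miR-214, had peaks of 661 and 591 bp, and the first held the Mir199a-2 gene. Dleu2, host of miR-15a and miR-16-1, had peaks of 1680 and 2443 bp, both with an island. Mir155hg had 1 of 1170 bp, the miR-31 host AL805899.1 1 of 1385 bp, and Gm4258, host of miR-181a-1 and miR-181b-1, 3 of 250, 674 and 305 bp without an island. Among snoRNA and scaRNA hosts, Snhg12 had 1 peak of 1809 bp, Snhg15 1 of 2515 bp, Snhg20 1 of 1996 bp, Snhg6 1 of 1406 bp and 1110038B12Rik 1 of 2190 bp, all overlapping an island. Snhg8 had 2 of 695 and 749 bp, both with an island, and Snhg5 4 of 366, 782, 483 and 459 bp. Some peaks covered the small RNA genes themselves. In all, 15 of 468 peaks overlapped a miRNA, snoRNA or scaRNA gene on the strand of the lncRNA (3.21%, interval 1.95 to 5.22%), beside 0.766% of coding promoter peaks.

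Of the list of small RNA hosts as a whole, 26 of 29 entries were found in the annotation (Carmn is entered under both of its names). A peak lay within 1 kb of a TSS for 23, and 13 were among the genes described here. The share of all lncRNA genes with such a peak, 20.3%, stands beside this list and each list below. Some listed genes have types outside the rule and are not part of that share. They are Snhg11, Platr17 and Platr25 (protein_coding), Peg13 and Platr32 (sense_intronic) and Sox1ot (sense_overlapping), of which Platr25 and Peg13 had a peak. Another 8 small RNA hosts had a coding TSS within 5 kb of the peak, Gas5, Zfas1, Snhg1 and Snhg3 among them. Mir17hg had a peak of 2820 bp whose centre lay 1272.5 bp from the TSS, and Mir9-3hg and Mir124a-1hg, hosts of neural miRNAs, had none. Outside this list, however, C130071C03Rik, which holds Mir9-2, was among the genes described here. A stand-alone peak of Gm27032 overlapped part of the Mir124a-3 gene. Of the neural list 9 of 10 genes were found and 3 had a peak. Miat had narrow peaks of 200 and 250 bp on an island, Rmst had 1 of 815 bp that overlapped an enhancer, and Dlx6os1 shared its promoter region with a coding TSS. Pantr1, Pantr2, Sox2ot, Six3os1 and Meg3, which is also in the imprinted list, had none. Of the pluripotency list 5 of 31 genes had a peak within 1 kb of a TSS, beside 20.3% of all 9793 lncRNA genes, stand-alone or not. Platr16, with a stand-alone peak of 348 bp on an enhancer, was the only one among the stand-alone promoters. Of the imprinted list 4 of 11 had a peak and none met the rule. H19, Meg3, Rian and Mirg had none, and the peaks of Kcnq1ot1 (2152 bp) and Airn (2371 bp) were centred 1068.5 and 1120 bp from the TSS. Of the limb and mesoderm list, which is mostly genes in the Hox clusters, 9 of 12 had a peak and all 9 had a coding TSS within 5 kb. Hotair, Hoxb5os and Hoxb3os had none.

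**Figure D5:**
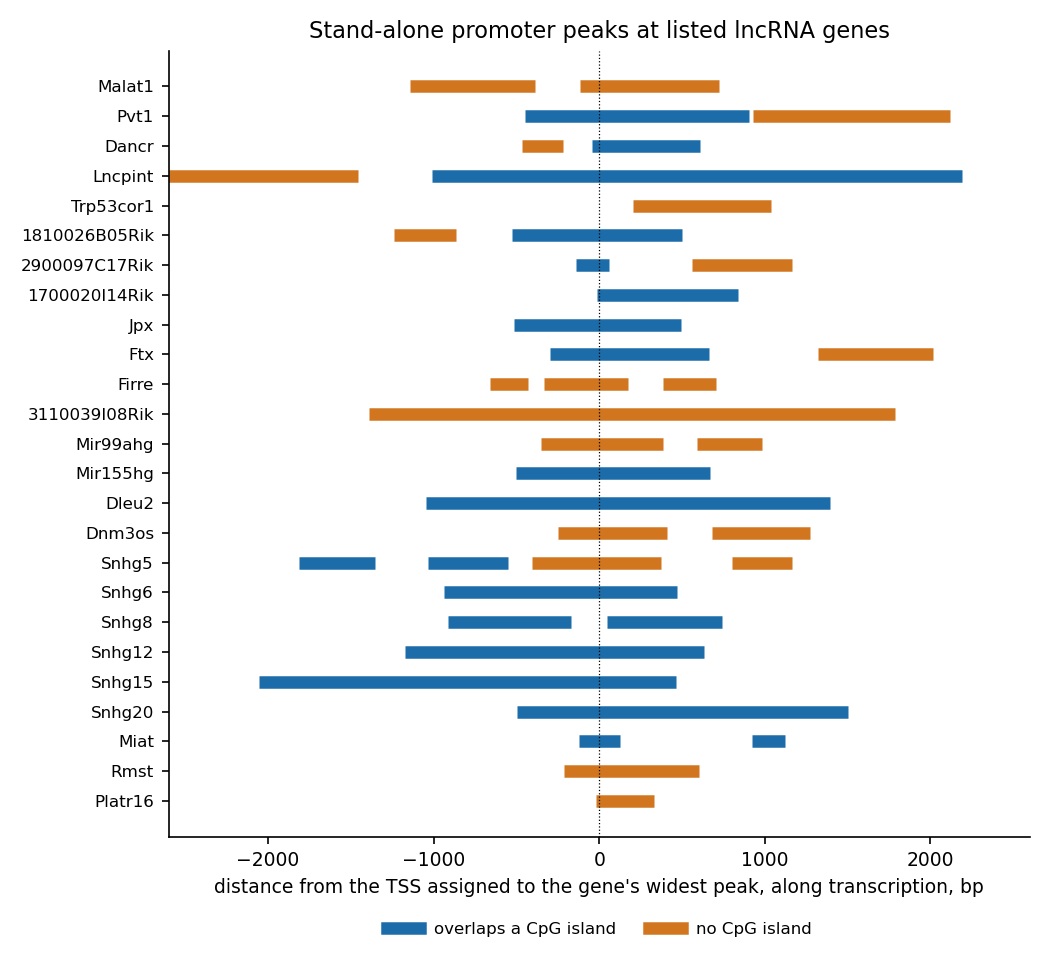
Extent of stand-alone promoter peaks at 25 listed lncRNA genes, in bp from the TSS assigned to the gene's widest peak, along transcription. Bars are peaks, blue where they overlap a CpG island and orange where not. Peaks beyond the axis, and the gene Carmn, are left out. A peak near the TSS follows from this choice of TSS and from the rule. Among the genes drawn, Lncpint (3205 bp) and 3110039I08Rik (3182 bp) have the widest peaks.

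The 5 widest peaks were those of 2810410L24Rik (3384 bp), Lncpint (3205 bp), 3110039I08Rik (3182 bp), Gm13067 (2704 bp) and Gm38399 (2673 bp). All but that of 3110039I08Rik overlapped an island, and all lay more than 30 kb from a coding TSS. The 3 widest without an island were that of 3110039I08Rik and those of Gm14005 (2167 bp) and Gm26652 on the X chromosome (2090 bp). The genes with the most peaks were Ftx and Mir99ahg with 5 each, followed by 3110039I08Rik among the 6 genes with 4. Most putative enhancers within 50 kb were found around AL805899.1 (12), the widest peak of 3110039I08Rik (11) and Gm26698 (10), which tied with 5830428M24Rik and 5031415H12Rik. Farthest from a coding TSS were Gm40864, 2410018L13Rik and Gm5784, at 1157152, 770250.5 and 566347.5 bp. All 3 lie between 19 and 24 Mb on chromosome 12, overlap an island and are made in part of repeated sequence, with 77.7%, 47.9% and 33.4% of their 75-base words found more than once. Among all 468 peaks, 9 had more than 50% of such words (1.92%, interval 1.01 to 3.61%), beside 0.338% of coding promoter peaks, and 44 had any (9.40%, beside 7.30%). Besides the Norad pair and Gm40864 these were the pair at Gm49700 and the peaks of Gm47450, Gm49709, BC002059 and AC132253.9, chosen here after their values were seen. Whether reads from another copy made them was not tested.

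Stand-alone promoters lay a median of 30975.5 bp from the nearest coding TSS (quartiles 15179.8 and 72002.4 bp), and 88 of 468 (18.8%) were more than 100 kb away. The nearest coding gene itself had a peak for 357 of 468 peaks (76.3%, interval 72.2 to 79.9%). Counted by gene, this was so for 305 of 402 stand-alone lncRNA genes with a peak (75.9%, interval 71.5 to 79.8%) and for 4370 of 6625 without one (66.0%, interval 64.8 to 67.1%), beside 59.1% of all coding genes. The nearest coding gene was on the same strand for 235 (50.2%), divergent for 121 (25.9%) and convergent for 112 (23.9%). A coding gene covered the centre of 55 peaks (11.8%, interval 9.14 to 15.0%), a share that the rule itself lowers by leaving out peaks near coding TSSs, and in 47 of them the lncRNA ran antisense to it. Of the antisense type alone, 32 of 67 peaks lay inside a coding gene.

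By chromosome the number ran from 0 on Y and 9 on chromosome 8 to 39 on chromosome 13, 35 on 17 and 33 each on 7 and 9. Set against coding promoter peaks, chromosome 13 had 5.65 for every 100, the X chromosome 4.80 and chromosome 17 4.46, while chromosome 8 had 1.04. Of the stand-alone lncRNA genes, 12.1% of 273 had a peak on chromosome 17, 11.7% of 137 on X and 2.23% of 403 on chromosome 8. The densest windows of 1 Mb held 8 peaks each. The window chr19:5000001-6000000 held those of Malat1 and Frmd8os, and the window chr9:88000001-89000000 those of Snhg5, 9330159M07Rik, 9430037G07Rik and Gm26611, of which a median of 6.11% of words were repeated. The window chrX:103000001-104000000 held the 6 peaks of Ftx and Jpx.

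At the limits of the rule, the farthest centres still taken were those of D130017N08Rik and Gm27255, at -999.5 and -996.5 bp from the TSS, and the nearest left out were those of Gm43120 and E330011O21Rik, at 1009.5 and 1027.5 bp. The peaks of Abhd1, typed as processed_transcript in this annotation, and AA465934 were 5009 and 5010 bp from a coding TSS, and those of Gm15991 and Gm15050, at 4942 and 4907 bp, were left out. In the RefSeq annotation of the same build, 47 of the 468 peaks (10.0%, interval 7.64 to 13.1%) had a coding TSS within 5 kb, and 38 were centred within 1 kb of one, so the absence of a coding TSS near these promoters depends on the annotation.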

How the data were processed

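H3K4me3 ChIP-seq of iMEF cells was sequenced from single ends in reads of 75 bases. The authors trimmed reads with Trim Galore, aligned them with BWA to mm10 (GRCm38.p6), filtered with samtools, merged replicates with Picard and found narrow peaks with MACS, in versions not given in the sources used here. The deposited lists used here hold positions of 25431 peaks across all samples and 32965 putative enhancers, with 0 columns of values per sample, so the planned test of counts over time was not made and depth is unknown. The study's list of sites changed at each time was not analysed here. Peak starts count from 0 and were raised by 1. No region ran past the end of a chromosome of GRCm38.p6. TSSs were those of all transcripts of GENCODE M21 genes on chromosomes 1 to 19, X and Y (9793 lncRNA and 21938 coding genes), while the study names release M25, and TSSs from RefSeq served as a check. CpG islands (16134) were found anew in the repeat-masked sequence with a running score of 17 for a CG and -1 for other bases, over 200 bp, GC over 50% and observed over expected over 0.6. The study took its islands from UCSC. A word counted as repeated if its 75 bases, on either strand, occur more than once on these chromosomes. Python 3 with NumPy, pandas, SciPy and Numba was used, and the interval, island and repeat functions were tested on simulated data. Samples could be grouped by time but no list column belongs to a sample. The regions, gene lists and comparison classes were chosen with earlier results of these data known. Genes were named by rule: all listed genes, the 5 widest peaks, the 3 widest without an island, the 3 genes with most peaks, the 3 peaks farthest from a coding TSS and the 3 with most enhancers within 50 kb, and those nearest to the limits of the rule. Small RNA hosts and genes in dense windows were named in addition. Shares by width of TSS-distal peaks, for genes with 1 TSS and with stricter islands by class were added after seeing the data. Alternatives changed the window, the coding-free distance, the TSS sets, the gene types, the peaks and the island and enhancer rules.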

Additional observations from a re-analysis of the deposited data

Results flagged for a closer look

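The list has 74 peaks outside chromosomes 1 to 19, X and Y, on 26 unplaced or unlocalised scaffolds, which no comparison above used. They were looked at because they are data outside the main measurement. The TSSs used here were taken from chromosomes 1 to 19, X and Y only, so the rule could not take any of these 74 peaks. Whether any of them lies at a lncRNA promoter was not assessed.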

How the results depend on the processing

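The 10 results were recomputed under alternatives, and 59 of 79 values stayed within the 95% interval of the reported value (for the number of peaks, within 1.5 times). With peaks of at least 500 bp only, the number of peaks was 250, the island share 54.4%, the median width 837 bp, the enhancer share 35.6% and the share of stand-alone genes with a peak 3.74%. With 1 TSS per gene, coding genes included, the island share was 46.3%, the median width 631.5 bp, the enhancer share 26.7% and the share of genes with a peak 6.57%. With peaks merged within 1 kb, the island share was 44.4%, the median width 833 bp and the enhancer share 35.7%. With 1 peak per gene, an alternative chosen after seeing the data, the median width was 658 bp. Stricter islands (at least 500 bp, GC of at least 55%, observed over expected over 0.65) gave an island share of 19.2%, and islands within 1 kb of the TSS 45.7%. The enhancer share was 21.8% where at least 50% of the enhancer had to lie in the peak and 35.7% for enhancers within 1 kb. The median distance to a coding TSS was 38219 bp with no coding TSS within 10 kb and 21568 bp with none within 1 kb, as the rule itself sets. The share of genes with a peak was 3.86% where the peak had to cover the TSS. The cause of the other moves was not tested. The share centred downstream stayed between 59.5% and 64.4%, and leaving out peaks with more than 50% repeated words, also chosen after seeing the data, moved none of 5 results past its interval. No paired analysis was possible because the files hold no values per sample, and for the same reason no replicate could be left out. Without heights or depth, weak and strong peaks cannot be told apart except by width.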
